A study of Mus musculus with 16 samples.

Results

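Mucin and goblet cell genes were followed in basal epithelial cells of the mouse limbus and cornea. The set holds 10 genes: the mucin genes Muc1, Muc4, Muc16 and Muc5ac, the trefoil peptide genes Tff1 and Tff2, the goblet cell genes Spdef, Agr2 and Foxa3, and Pigr. Its probe sets are all those annotated to exactly 1 of these symbols, which gave 14 of the 45101 probe sets on the Affymetrix Mouse430_2 array. A probe set is a group of short probes that together report 1 signal for a transcript. Each gene had 1 probe set, except Muc4 with 3 and Agr2 and Pigr with 2 each. All animals were wild type; the labels name no strain, age, sex or treatment. From each of 8 mice, 300 limbal and 300 corneal basal cells were taken by laser capture microdissection, in which cells are cut from a tissue section under the microscope. Their RNA was amplified, labelled with biotin and hybridised, so that each mouse gave 1 limbal and 1 corneal array. Values per mouse compare these 2 arrays, and each mouse counts as 1 replicate (n = 8).

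Mucins are heavily O-glycosylated proteins that keep the surface of the eye wet and slippery. Muc1, Muc4 and Muc16 are anchored in the membrane of surface epithelial cells, where they form the glycocalyx, while Muc5ac is the gel-forming mucin that conjunctival goblet cells release into the tears. Spdef and Foxa3 are transcription factors of goblet cell differentiation, Agr2 is a chaperone of the endoplasmic reticulum needed for mucin folding, and the trefoil peptides Tff1 and Tff2 are secreted with mucins and aid epithelial repair. Pigr encodes the receptor that carries polymeric IgA across mucosal epithelia. In the mouse eye, goblet cells lie in the conjunctiva, next to the limbus, and the cornea has none.

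The arrays were unequal, and this bears on every value that follows. Scanning took 3 days, with both arrays of a mouse together. The first day held mice 1 and 2, the second held mice 3, 4 and 5, and the third held mice 6, 7 and 8. The median correlation between arrays of 1 day was 0.51, 0.28 and 0.83 on days 1, 2 and 3. Krt12, the keratin that defines corneal epithelium, had a signal of 948 on the corneal array of mouse 5 and between 36932 and 307362 on the other 15 arrays, limbal ones included. Markers of other cells were mostly higher in limbal captures, but not in every mouse. Of 7 conjunctival keratins, 6 had a positive limbal minus corneal difference, and their summed signal ranged from 1819 to 96877 in limbal and from 2381 to 18552 in corneal arrays. All 10 stromal genes had a positive difference, with a summed signal of 6182 to 279311 in limbal and 2110 to 29768 in corneal arrays, and 9 of 9 tested immune cell genes did, with 7023 to 114422 against 4168 to 12993. Over all tested genes, 50.9% had a positive difference. At an adjusted p under 0.05 in limma, 1 keratin, 2 stromal genes and 1 immune cell gene were higher in limbal arrays. The mean difference of the keratins was negative in mouse 4 (-1.02). That of the stromal genes was negative in mice 5 and 8, and that of the immune cell genes in mice 4, 5 and 8. None of these markers was at 0 on any array. A signal as low as 9.9, the lowest corneal value of Krt13, does not show that a transcript was present. The part of these markers in the values of the mucin and goblet cell genes was not tested. In captured samples, fewer cells of a type and less RNA per cell cannot be told apart.

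No mucin or goblet cell gene was called as different between limbal and corneal basal cells. The test was limma with the mouse as a term, on log2(signal + 89.4), with a call at an adjusted p under 0.05 over all tested probe sets. Of the 14 probe sets, 7 passed the filter on low values, which keeps probe sets whose mean lies above the 40th percentile. These 7 belong to 6 genes: Muc1, Muc4, Tff1, Tff2, Spdef and Pigr. Limma called 0 of the 7, where 0.0851% of all 27022 tested probe sets were called (23, of which 22 were higher in limbal cells). At an unadjusted p under 0.05 there was 1 probe set with higher limbal signal, of Muc4, against a background of 3.69% of all tested probe sets, and 1 with lower limbal signal, of Pigr, against 2.78%. In the fit without a filter, limma called 0 of all 14 probe sets, and the same 2 were under 0.05 unadjusted, where 5.9% of all probe sets were. The median limbal minus corneal difference was 0.07 on the log2 scale over the 7 probe sets and -0.00030 over all tested. A call would have needed a difference of 1.98 (Tff1) to 2.43 (Muc4), given each probe set's standard error, or 3.93-fold to 5.40-fold on the scale with the added constant. An estimated difference below these sizes would not have been called with these 16 arrays. The sizes are cuts on the estimate and set no limit on the true differences.

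The plot of signals shows how far the captures overlapped. In each of the 14 probe sets the limbal and the corneal range overlapped, and the lines that join the 2 captures of a mouse ran up in some mice and down in others. The share of all probe sets with overlapping ranges was not counted, so the overlap is not shown to be particular to these 14.

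**Figure D1:**
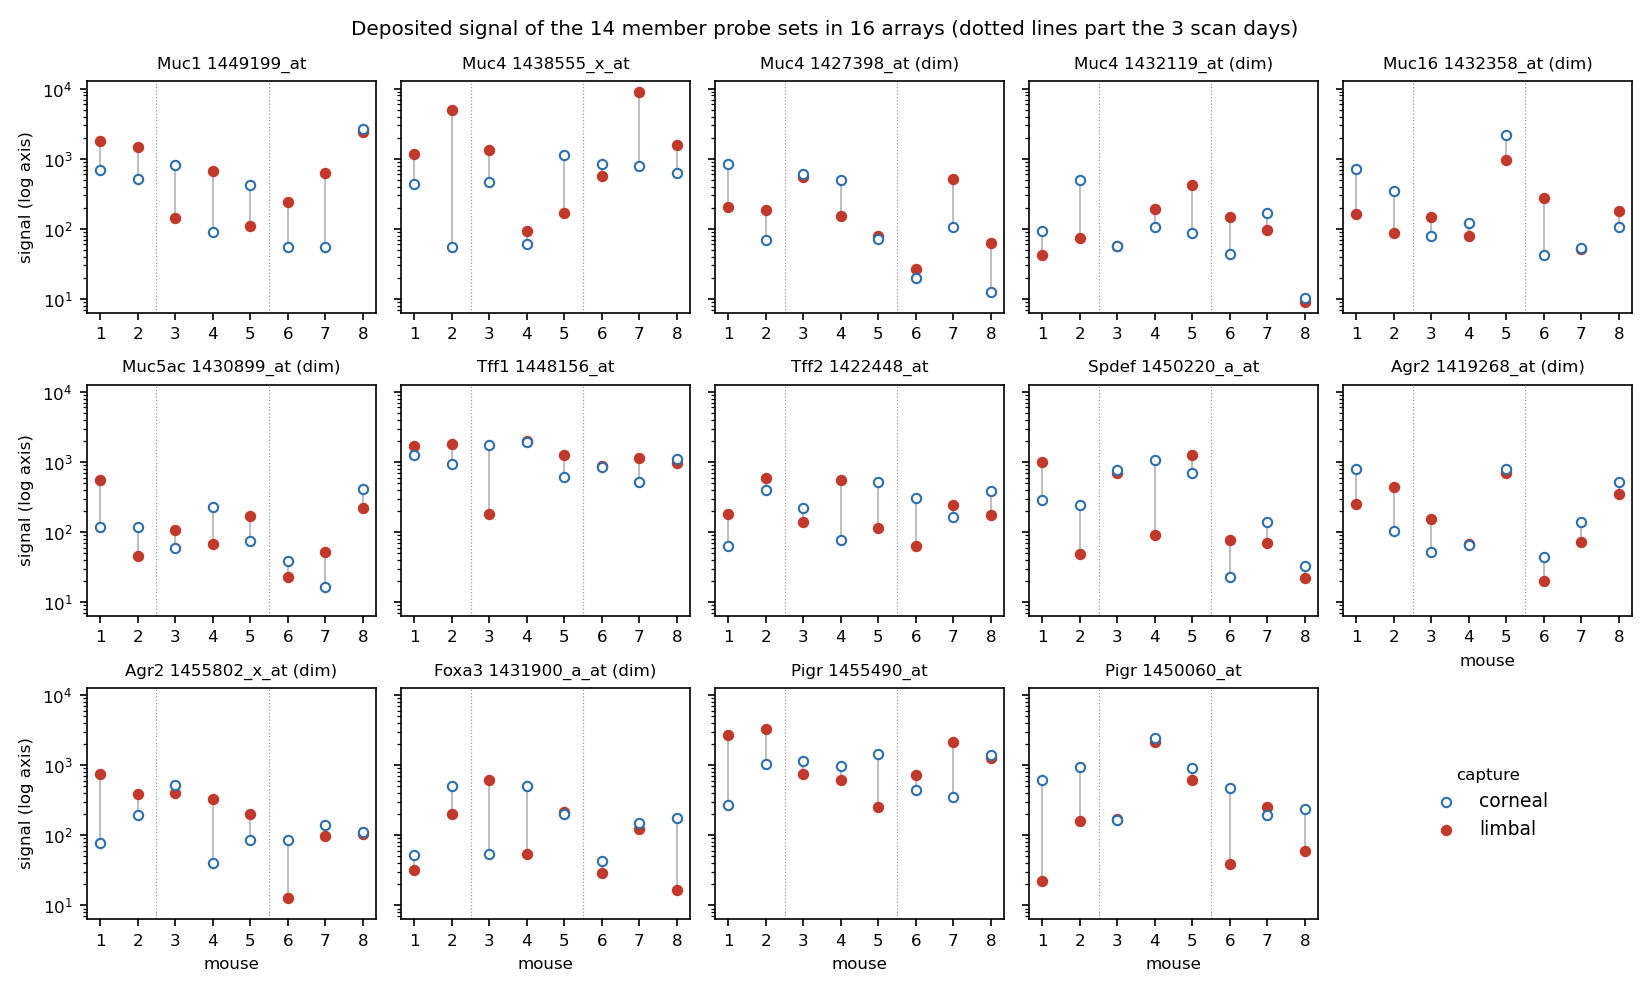
Deposited signal (log axis) of each of the 14 probe sets on all 16 arrays, by mouse, with limbal captures filled and corneal captures open and a line joining the captures of a mouse. Probe sets marked dim did not pass the filter on low values. Limbal and corneal values overlap in every panel, and Muc4 1438555_x_at has its highest signals, 4931 and 8963, on the limbal arrays of mice 2 and 7.

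Muc4 had the largest difference among the membrane mucins, on 1 of its 3 probe sets. The signal of probe set 1438555_x_at was 1160, 4931, 1326, 93.9, 168, 575, 8963 and 1563 on the limbal arrays of mice 1 to 8. On the corneal arrays of the same mice it was 432, 55.3, 467, 60.4, 1123, 831, 801 and 625. Limbal arrays of mice 2 and 7 were far above the rest, mouse 4 was low at both sites, and mice 5 and 6 had the higher corneal signal. On the log2 scale limbal arrays averaged 10.22 ± 1.93 (SD, n = 8) and corneal arrays 8.99 ± 1.17 (SD, n = 8). The difference was 1.23 ± 0.52 (SE), or 2.35-fold with a 95% interval from 1.13-fold to 4.87-fold, positive in 6 of 8 mice, and did not pass (limma adjusted p = 0.70).

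The Muc4 difference varied between scan days and with single mice left out. Whether it differs by day was not tested, and scan day cannot be told apart from the mice scanned on it. It was 3.19 on day 1, -0.20 on day 2 and 1.36 on day 3. Within the 2 mice of day 1 alone limma called it (adjusted p = 0.031), and this was the lowest adjusted p among the 24 alternatives run for it. The same fit called 104 of all 27022 tested probe sets. With 2 mice the variance of a single probe set is barely estimated, and limma borrows most of it from the other probe sets. Without mouse 2 the difference was 0.68 and without mouse 5, whose corneal array was low in Krt12, it was 1.73. The suffix of this probe set, _x_at, marks probes that can also bind related transcripts.

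The other probe sets of Muc4 were dim and their mean differences were near 0. Probe set 1427398_at ranged from 27.1 to 557 in limbal arrays (median 168) and from 12.7 to 831 in corneal arrays (median 89.4). Probe set 1432119_at ranged from 9.0 to 419 in limbal arrays (median 85.5) and from 10.2 to 493 in corneal arrays (median 90.6). Neither passed the filter, and in the fit without a filter they differed by 0.01 ± 0.44 and 0.01 ± 0.35 (SE). In mouse 2, where the bright probe set differed by 5.12, these differed by 0.80 and -1.82. In mouse 7 the 3 probe sets differed by 3.35, 1.61 and -0.46.

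Muc20, also a membrane mucin gene, is the next protein-coding gene after Muc4 in the mouse RefSeq gene table. Its tested probe set 1451786_at had a median signal of 1030 in limbal and 288 in corneal arrays and differed by 1.18 ± 0.47 (SE), positive in 6 of 8 mice, without passing (limma adjusted p = 0.64). The values of Muc20 and Muc4 were both high in mouse 2 and parted in mice 4 and 5. Muc20 differed by 2.41, 2.97 and 3.53 in mice 2, 4 and 5, and its other values ran from -0.80 to 1.10, whereas Muc4 stood at 0.29 and -2.23 in mice 4 and 5. A dim second probe set of Muc20, 1442960_at, differed by -0.32 ± 0.41 (SE) in the fit without a filter.

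Muc1 spanned a wide range in both captures. Its signal (1449199_at) was 1768, 1495, 141, 660, 110, 239, 631 and 2411 on the limbal arrays of mice 1 to 8. Its corneal signal was 699, 510, 827, 90.0, 415, 54.6, 55.6 and 2638. Mouse 8 had the highest signal at both sites, and mice 3, 5 and 8 had more signal in the cornea. The difference was 0.59 ± 0.47 (SE), with a 95% interval from -0.35 to 1.54 and an adjusted p of 0.89 in limma. By scan day it was 1.32, -0.42 and 1.13.

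Muc16 did not pass the filter. Its probe set 1432358_at ranged from 51.3 to 975 in limbal arrays (median 156) and from 42.0 to 2155 in corneal arrays (median 115). The highest signal at each site came from mouse 5, scanned on day 2, whose corneal array was low in Krt12. Muc16 was above the array's own median signal on 6 of 16 arrays, 3 at each site. In the fit without a filter it differed by -0.25 ± 0.45 (SE), with a 95% interval from -1.16 to 0.67, and the limbal signal was the lower in 5 of 8 mice.

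**Figure D2:**
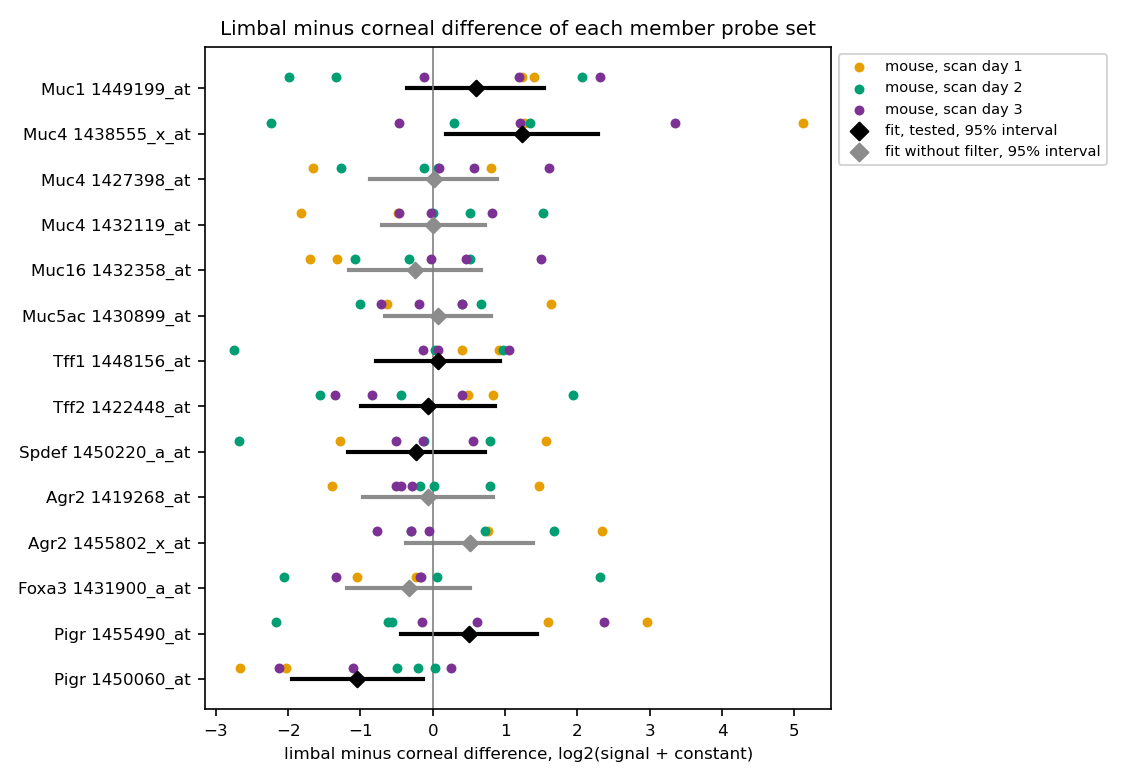
Limbal minus corneal difference of each probe set on the log2(signal + constant) scale: diamonds with bars are the fitted difference and its 95% interval, from the tested probe sets (black) or, for dim ones, the fit without a filter (grey), and small points are the 8 mice coloured by scan day. The intervals exclude 0 for Muc4 1438555_x_at (0.18 to 2.28) and Pigr 1450060_at (-1.94 to -0.14), neither of which passed after adjustment, and the points of each probe set lie on both sides of 0.

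The secreted goblet cell mucin Muc5ac was dim in both captures. The signal of 1430899_at was 561, 45.3, 109, 66.9, 172, 22.7, 51.2 and 218 on the limbal arrays of mice 1 to 8. In the cornea of the same mice it was 120, 119, 59.6, 224, 75.2, 38.4, 16.4 and 415. It was above the array's own median on 2 limbal arrays and 1 corneal array. The limbal array of mouse 1 and both arrays of mouse 8 were among the highest. In the fit without a filter the difference was 0.07 ± 0.36 (SE), with a 95% interval from -0.66 to 0.81, and 4 mice were higher and 4 lower.

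The other secreted mucins were dim as well. Of 5 secreted mucin genes in a list drawn up for these samples (Muc2, Muc5ac, Muc5b, Muc6 and Muc19), the 3 with a probe set of their own, Muc2, Muc5ac and Muc5b, all lay under the filter. Muc2, the main mucin of the intestine, had a median signal of 96.1 in limbal and 68.4 in corneal arrays, and Muc5b, a mucin of airways and glands, 170 and 222. Without a filter they differed by 0.50 ± 0.37 and -0.19 ± 0.47 (SE). A signal this low gives no level for a transcript, and these genes got no test in the fit with a filter.

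Of the transcription factor genes Spdef and Foxa3, Spdef passed the filter. Its signal (1450220_a_at) was 1015, 49.0, 704, 92.0, 1269, 75.9, 69.9 and 21.8 on the limbal arrays of mice 1 to 8. The corneal arrays gave 284, 247, 775, 1067, 698, 22.8, 137 and 32.9. All 6 arrays of scan day 3 were at 137 or below, and the arrays at 698 or above came from days 1 and 2. The difference was -0.23 ± 0.46 (SE), with a 95% interval from -1.17 to 0.72 (limma adjusted p = 0.97), and its sign turned without mouse 4 (0.12) or without scan day 2 (0.04).

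Foxa3 (1431900_a_at) ranged from 16.5 to 620 in limbal arrays (median 88.1) and from 43.5 to 506 in corneal arrays (median 165). It was under the filter and above the array's own median on 3 of 16 arrays. The limbal signal was the lower in 6 of 8 mice, and without a filter the difference was -0.33 ± 0.42 (SE). Mouse 3 went the other way by 2.31.

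The chaperone gene Agr2 was under the filter on both of its probe sets. Probe set 1419268_at ranged from 20.1 to 696 in limbal arrays (median 203) and from 44.2 to 806 in corneal arrays (median 123), and differed by -0.07 ± 0.44 (SE) without a filter. Probe set 1455802_x_at ranged from 12.8 to 754 in limbal arrays (median 261) and from 40.5 to 518 in corneal arrays (median 98.5), and differed by 0.51 ± 0.44 (SE). The signs of the 2 probe sets agreed in mice 2, 4, 6, 7 and 8 and were opposite in mice 1, 3 and 5, furthest apart in mouse 1 with -1.39 and 2.34.

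The trefoil peptide gene Tff1 was bright in both captures. Its signal (1448156_at) was 1691, 1829, 180, 1973, 1261, 882, 1157 and 977 on the limbal arrays of mice 1 to 8. The corneal arrays gave 1255, 923, 1727, 1928, 601, 837, 510 and 1088. Only the limbal array of mouse 3 stood apart, and on the other 15 arrays the signal was above the array's own median. The difference was 0.07 ± 0.42 (SE), with a 95% interval from -0.78 to 0.92 (limma adjusted p = 0.99), and 0.47 without mouse 3. Corneal values spread less than those of any other tested probe set of the 10 genes, with an SD of 0.62 around a mean log2 value of 10.11 (n = 8).

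Tff2, the neighbour of Tff1 in the RefSeq gene table, had lower signals that crossed between sites. Its signal (1422448_at) was 183, 600, 138, 550, 114, 64.1, 244 and 174 on the limbal arrays of mice 1 to 8. Its corneal signal was 63.5, 403, 220, 76.8, 512, 304, 163 and 382. In 4 mice the limbal array was the higher and in 4 the lower, and the difference was -0.07 ± 0.46 (SE), with a 95% interval from -0.996 to 0.860 (limma adjusted p = 0.99). Tff3, the trefoil peptide of intestinal and conjunctival goblet cells and the neighbour of Tff2 on its other side, differed by 0.38, with a 95% interval from -0.53 to 1.30 (limma adjusted p = 0.95).

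The receptor gene Pigr had 2 tested probe sets, and their mean differences were of opposite sign. The signal of 1455490_at was 2714, 3296, 740, 607, 251, 725, 2160 and 1269 on the limbal arrays of mice 1 to 8. On the corneal arrays it was 272, 1032, 1136, 982, 1440, 445, 348 and 1411. The limbal signal was the higher in mice 1, 2, 6 and 7 and the lower in mice 3, 4, 5 and 8. The difference was 0.50 ± 0.46 (SE), with a 95% interval from -0.43 to 1.44 (limma adjusted p = 0.91).

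The second Pigr probe set, 1450060_at, read 22.3, 160, 171, 2137, 616, 39.5, 254 and 60.6 on the limbal arrays of mice 1 to 8. In the cornea it read 620, 932, 165, 2466, 906, 472, 198 and 234. Both arrays of mouse 4 stood above all others. The difference was -1.04 ± 0.45 (SE), or 0.486-fold with a 95% interval from 0.260-fold to 0.908-fold, negative in 6 of 8 mice, and did not pass (limma adjusted p = 0.70). In mice 1, 2 and 6 the first probe set differed by 2.96, 1.59 and 0.61 and the second by -2.67, -2.03 and -2.12. In mice 4, 5, 7 and 8 the signs of both agreed. Whether the 2 probe sets differ from each other was not tested.

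The Pigr differences varied between scan days as well, which was not tested either. The first probe set differed by 2.27, -1.12 and 0.94 on days 1, 2 and 3, and the second by -2.35, -0.22 and -0.99. Without the arrays of day 2, which correlated least with each other, Muc1, Muc4 and both Pigr probe sets reached an unadjusted p under 0.05, 4 of the 7 tested probe sets, where 7.45% of all tested probe sets did. Their differences were then 1.20, 2.09, 1.48 and -1.53, in that order, and none passed (limma adjusted p between 0.30 and 0.47).

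**Figure D3:**
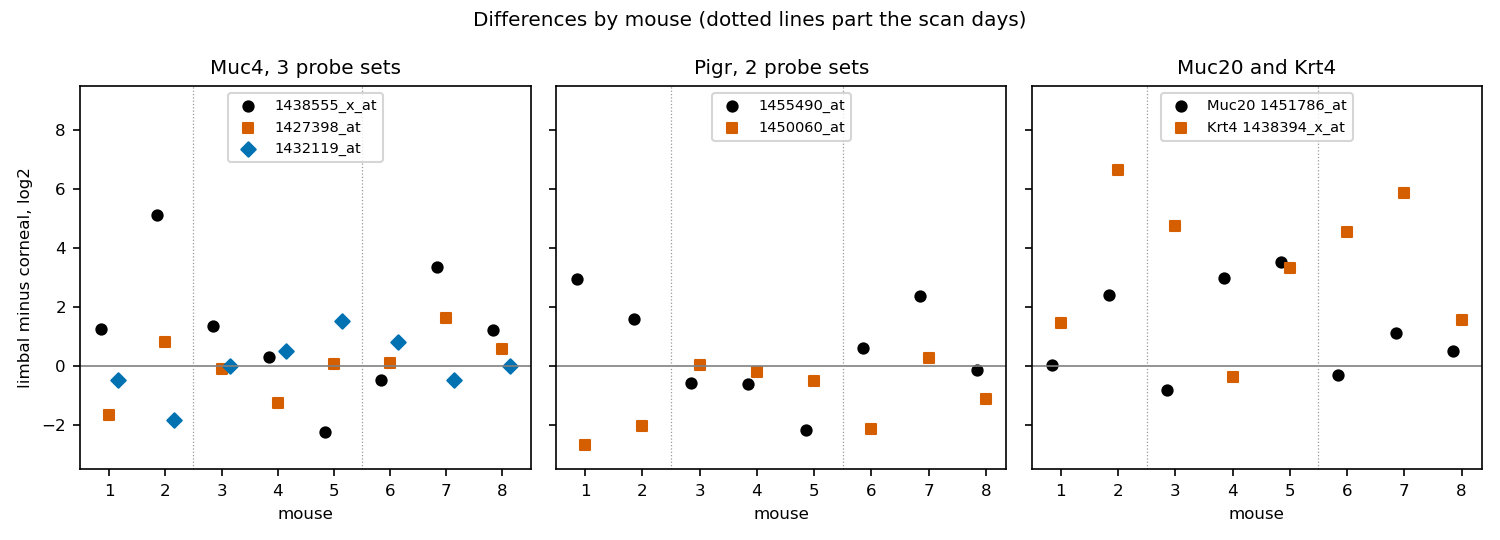
Limbal minus corneal log2 difference in each of the 8 mice for the 3 probe sets of Muc4, the 2 of Pigr, and for Muc20 and the conjunctival keratin gene Krt4. In mouse 2 the bright Muc4 probe set differs by 5.12 while 1432119_at differs by -1.82, and in mouse 1 the Pigr probe sets differ by 2.96 and -2.67.

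Krt4, a keratin of conjunctival epithelium, was called as higher in limbal captures, and its values by mouse are given beside those of the mucins. It differed by 3.47 ± 0.53 (SE; limma adjusted p = 0.0031). In mice 2 and 7, with the largest Muc4 differences, Krt4 differed by 6.63 and 5.86. In mice 3, 5 and 6 it differed by 4.75, 3.33 and 4.54, where Muc4 stood at 1.35, -2.23 and -0.47. In mice 1, 4 and 8 it differed by 1.46, -0.38 and 1.56, and Muc4 by 1.26, 0.29 and 1.21. Whether the mucin differences are smaller than that of Krt4 was not tested.

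The lists of membrane mucins, goblet cell genes, mucin O-glycosylation, and mucosal secretion and IgA transport held no called gene. Of 8 membrane mucin genes, 6 were tested and limma called 0; 4 differences were positive and 2 negative, with a median of 0.50 against 0.01 over all 13570 genes tested. The untested ones were Muc16 and Muc13, a mucin of intestinal epithelium. Besides Muc1, Muc4 and Muc20, the positive one was Muc15 (0.40 ± 0.42, SE), and Muc3, an intestinal mucin, stood at -0.57 ± 0.48 (SE). At an unadjusted p under 0.05 the list held 2 of its 6 tested genes, Muc4 and Muc20, where 6.71% of all tested genes were under it.

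Among 19 goblet cell genes, 13 were tested and limma called 0, with 0 at an unadjusted p under 0.05. Over all 13570 tested genes limma called 18, and 6.71% were under 0.05 unadjusted. Against these shares, counts of 0 in so short a list say little about goblet cell genes. Of the 13 tested genes, 6 were positive and 7 negative, with a median difference of -0.0027. The smallest p among genes outside the set of 10 belonged to Gcnt3, a mucin-type glycosyltransferase gene (0.74 ± 0.48, SE), Bcas1 (0.62 ± 0.43) and Clca1, a goblet cell secretory protein gene (-0.63 ± 0.45). None of the 3 passed (adjusted p between 0.86 and 0.87).

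Genes of mucin O-glycosylation, mostly enzymes that build the sugar chains, were near even between sites. The list also holds C1galt1c1, a chaperone of such an enzyme, and Lgals3, a galectin that binds the chains. Of its 24 genes 17 were tested, 9 with a positive and 8 with a negative difference, and the median was 0.0077. Limma called 0, with 0 at an unadjusted p under 0.05, where 6.71% of all tested genes were. Galnt3 and Galnt2, which attach the first sugar of the chain, differed by 0.75 ± 0.42 and 0.76 ± 0.46 (SE), positive in 7 and 6 of 8 mice. Other Galnt genes went the other way, such as Galnt11 and Galnt4. These differed by -0.64 ± 0.43 and -0.45 ± 0.39 (SE), negative in 7 and 6 of 8 mice. The list of mucosal secretion and IgA transport had 10 of 14 genes tested, 5 in each direction. Again limma called 0, with 0 at an unadjusted p under 0.05, against the same 6.71%. Ccl28, a mucosal chemokine gene, differed by -0.65 ± 0.43 (SE) and had less limbal than corneal signal in 7 of 8 mice. Wfdc2 and Cftr, next by p in this list, differed by -0.67 ± 0.45 and 0.67 ± 0.45 (SE). Jchain, whose product joins the IgA that Pigr carries, differed by -0.07.

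Lists for the lacrimal and the meibomian gland, which feed the tear film, had 4 tested genes each. Of the lacrimal gland genes limma called 0, with 1 of the 4 at an unadjusted p under 0.05, against the same 6.71% of all tested genes. It was Pip (1.18 ± 0.49, SE; adjusted p = 0.68), a secretory protein gene. Pip was the 1 positive gene of this list. The 3 others were negative, and the list median was -0.40. Of the meibomian gland genes limma called 0, with 0 of the 4 at an unadjusted p under 0.05, against the same 6.71%. Far2, an enzyme gene of wax ester synthesis, differed by 0.97 ± 0.51 (SE).

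**Figure D4:**
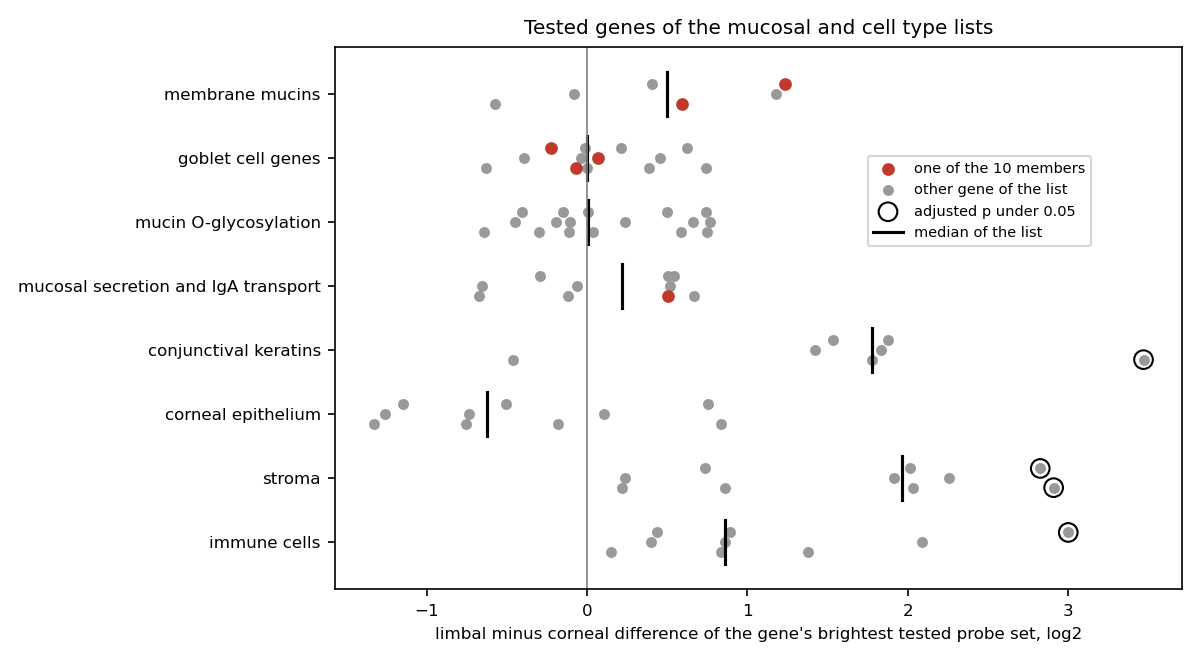
Limbal minus corneal log2 difference of each tested gene in 8 lists. The 6 tested genes of the set of 10 are in red, other genes in grey, the list median is a bar and a ring marks genes with an adjusted p under 0.05. The rings are on Krt4, Col1a2, Vim and H2-Aa and on no gene of the 4 mucosal lists.

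The genes whose 8 differences ran most nearly parallel to a member's were looked up for Muc4, Muc1 and Pigr, the members with the smallest p on their brightest probe set. For Muc4 they were Sec61a2, Tspan1, Bdp1, Srsf2 and S100a14, with Pearson correlations over the 8 mice between 0.96 and 0.99. For Muc1 they were Nadk, Mtrr, Dcun1d1, Greb1l and Rab39 (0.95 to 0.97), and for Pigr they were Lratd1, Fads6, Lgals3, Luc7l and Itprip (0.94 to 0.97). These are the highest of 13569 genes searched for each member, of which 21, 34 and 32 had a correlation above 0.9. The points share arrays, scan days and the unequal array quality, so the values describe these 8 mice only.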

How the data were processed

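The deposited table gave linear signal intensity values, 1 for each probe set on each array. The authors had scaled each array to a trimmed mean of 500, as the values show (499.8 to 500 after trimming 2% at each end); the summary algorithm is not given in the sources used here. The files gave no detection calls. Scan days came from the array information files, per the file headers. Groups were read from the letters C and L in the sample titles and pairs from the mouse number.

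Of 45101 probe sets, 64 controls were left out, and symbols came from the platform annotation (34945 with 1 symbol, 932 with several, 9160 with none). All 10 genes matched the RefSeq gene table by Entrez identifier. Coordinates are not given, since the files name no genome build.

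Values were log2(signal + 89.4), where the constant is the 25th percentile of the table, which understates changes of dim probe sets. limma 3.58.1 in R 4.3.3 was fitted to 27022 probe sets (mean above the 40th percentile) with mouse as a fixed term, variance trend and Benjamini-Hochberg adjustment; statmod 1.5.0 served the random block. A gene's brightest tested probe set represents it in lists. Each list's 3 genes with the smallest p could be named. Some genes were named outside this rule, among them Tff3, Galnt11, Galnt4 and Jchain. The pairing comes from the design, both captures being from 1 animal. The deviations of a mouse's arrays from their group means correlated with a median r of 0.30, above 0.1 in 7 of 8 mice, against 0.33 for different mice of 1 day. The fit was also run on simulated data, in which a probe set had noise of the same size on every array. That run cannot show how the fit does with arrays of unequal quality. Members and lists were chosen with earlier results of these data known. The number of arrays limits the precision.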

Additional observations from a re-analysis of the deposited data

Results flagged for a closer look

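The limbal array of mouse 3 stood far below the other limbal arrays for Tff1 (1448156_at). Its log2 value was 8.07, the next lowest was 9.92 and the highest 11.01, so that the gap took 0.63 of the whole range, above Dixon's 95% critical value for 8 samples. The limbal minus corneal difference of Tff1 in the same mouse, -2.75, stood apart in the same way, with the next lowest at -0.14 and the highest at 1.06 (0.69 of the range). These are 2 of 42 groups examined, 3 for each of the 14 probe sets, and chance alone marks about 5% of groups. Mouse 3 was scanned on day 2, whose arrays correlated least with each other; the part of that in the value was not tested.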

How the results depend on the processing

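Limma called 0 of the member probe sets in 21 of 22 alternatives and 1, Muc4, within scan day 1 alone (limbal minus corneal 3.19, adjusted p = 0.031, 2 mice). With array weights the adjusted p of Muc4 was 0.059. The count over all probe sets was 23, and it was 0 with no replicate block, 0 after quantile normalization, 8 with the filter at the 60th percentile, 11 with a constant of 16, 117 with array weights, 104 within scan day 1, and 0 within day 2 and within day 3. It ranged from 0 to 52 when single mice were left out: it was 0 with mouse 2 left out, 4 for mouse 1, 6 or 7, 10 for mouse 3 and 52 for mouse 8. At an unadjusted p under 0.05 the fits that called 0 held 858 (no block), 1596 (quantile), 971 (day 2), 2339 (day 3) and 1551 (without mouse 2) probe sets. Without the mouse in the model no member probe set reached an unadjusted p under 0.05, against 2 with it.

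Differences turned sign as follows; the cause was not tested. Within day 1, Tff2 stood at 0.66 and Spdef at 0.14. Within day 2, Muc4 stood at -0.20, Tff1 at -0.58, Muc1 at -0.42 and Pigr 1455490_at at -1.12. Without day 2 Spdef stood at 0.039. With single mice left out, Tff1 ranged from -0.071 to 0.47, Tff2 from -0.36 to 0.15 and Spdef from -0.48 to 0.12. The second Pigr probe set, 1450060_at, stood at -1.04 in the main fit, opposite in sign to 1455490_at (0.50). It kept its own sign in all 22 alternatives, between -2.35 and -0.22. Dim signal limits Muc5ac, Muc16, Foxa3 and Agr2, which got no test in the fit with a filter.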
